A study of Mus musculus with 6 samples.

Results

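Among the 54446 genes counted in the livers, 9 genes were followed here because they are known Wnt target genes of the hepatocytes that lie around the central vein: *Glul*, *Lgr5*, *Axin2*, *Rnf43*, *Znrf3*, *Tbx3*, *Sp5*, *Rhbg* and *Nkd1*. They were picked out by gene symbol, and the rule uses no measured value, although earlier results of these data were known when the genes were proposed. All 9 passed the filter on low counts and were among the 16734 genes tested. The mice were 3 males with an intact *Fmo5* gene (WT) and 3 males with *Fmo5* disrupted in every cell (*Fmo5*-/-), all on C57BL/6J, 32 weeks of age, fed standard chow without restriction and with no treatment named. Each liver gave 1 library of mRNA, and the comparison asks what the loss of flavin-containing monooxygenase 5, an enzyme of the endoplasmic reticulum of hepatocytes, does to gene expression.

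Wnt proteins bind Frizzled receptors and the co-receptors LRP5 and LRP6, which stops the destruction of β-catenin. β-Catenin then enters the nucleus and, bound to TCF/LEF factors, switches on target genes. In the liver, endothelial cells of the central vein secrete WNT2, WNT9B and R-spondin 3, so that Wnt signalling is strongest in the hepatocytes closest to that vein. These cells make glutamine from ammonia with glutamine synthetase, encoded by *Glul*, whereas the periportal hepatocytes at the opposite end of the lobule run the urea cycle. Some targets feed back on the pathway: *Lgr5* encodes a receptor for R-spondins, *Rnf43* and *Znrf3* encode ubiquitin ligases that remove Frizzled from the membrane, and *Axin2* and *Nkd1* encode inhibitors that act inside the cell. *Tbx3* and *Sp5* encode transcription factors, and *Rhbg* encodes an ammonium transporter.

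The genes lie on 7 chromosomes of mm10. *Axin2* is at chr11:108920349-108950783, and *Rnf43* at chr11:87662722-87735539 and *Znrf3* at chr11:5276324-5444847 are on the same chromosome. *Glul* is at chr1:153899944-153909723, *Sp5* at chr2:70474923-70477729, *Tbx3* at chr5:119670669-119684724, *Nkd1* at chr8:88521354-88594884 and *Lgr5* at chr10:115450311-115587780. *Rhbg*, at chr3:88242874-88254709, lies 9.37 Mb from *Fmo5*. In addition, 1190 of the 1937 exonic bases of *Rhbg*, 61.4%, also belong to *Gm38392* on the same strand, and reads there were assigned to neither gene, so the counts of *Rhbg* come from the rest of the transcript. Both strands were counted together, so exonic bases shared with an antisense gene were lost in the same way, 115 of *Tbx3* (*Tbx3os1*) and 209 of *Axin2* (*Gm11670*). *Glul* shares 209 of its exonic bases, 6.29%, with the antisense gene *Teddm2* and with *Mir8114*.

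Promoter sequences from RefSeq (GRCm38.p6) were at hand for 5 of the 9 genes, *Glul*, *Sp5*, *Nkd1*, *Rnf43* and *Axin2*, as 6 windows of 250 bases before to 50 bases after a transcription start. They were searched on both strands for CTTTGAT and CTTTGAA, the core recognised by TCF/LEF factors with either last base. These letters were present in 1 of the 6 windows, that of *Sp5*, which holds CTTTGAT at position -104 relative to the start. Of all 32851 mouse promoter windows of this length, 8.65% hold either motif, 3.73% CTTTGAT and 5.14% CTTTGAA. The windows of *Sp5* (chr2:70474673-70474972, plus strand) and *Axin2* (chr11:108920099-108920398, plus strand) are shown because these are the genes of the 9 whose counts did not overlap between the genotypes, with the motif in capitals.
Sp5: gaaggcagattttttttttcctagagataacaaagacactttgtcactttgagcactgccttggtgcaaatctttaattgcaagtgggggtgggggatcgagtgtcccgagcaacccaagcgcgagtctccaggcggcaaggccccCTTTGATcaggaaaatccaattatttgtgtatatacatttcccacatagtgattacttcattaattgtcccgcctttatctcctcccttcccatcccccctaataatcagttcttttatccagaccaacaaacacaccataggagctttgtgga
Axin2: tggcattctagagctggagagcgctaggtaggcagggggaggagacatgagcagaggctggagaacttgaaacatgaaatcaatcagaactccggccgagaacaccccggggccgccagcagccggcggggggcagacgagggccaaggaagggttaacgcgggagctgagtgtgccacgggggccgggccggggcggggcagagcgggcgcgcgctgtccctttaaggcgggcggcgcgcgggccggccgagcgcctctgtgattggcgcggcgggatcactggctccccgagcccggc
The *Axin2* window is richer in G and C, 70% against 45% in that of *Sp5*, and does not contain the letters of either motif.

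Between 44886286 and 52338675 reads were counted on genes per library. *Fmo5* itself was high in the 3 WT mice, with 39808, 37405 and 30240 normalized read counts, and low in the 3 *Fmo5*-/- mice, with 1071, 1102 and 1194. Hepatocyte markers were abundant in every library, with *Alb* at 4085760 to 5404120. Each library came from a mouse of its own, so p-values concern the spread between animals. The test drew each gene's spread towards that of other genes, so no gene was judged on its own spread alone. Across all genes, edgeR called 229 of 16734, or 1.37%, at an adjusted p under 0.05, with 113 (0.675%) higher and 116 (0.693%) lower in *Fmo5*-/- mice.

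None of the 9 Wnt target genes passed the test: 0 of 9 were called by edgeR and 0 of 9 by DESeq2, beside 1.37% and 8.96% of all genes. With the limit of 500 on the mean normalized count that the study set, 6 of the 9 remained and 0 were called, beside 1.61% of all genes above that limit. At an unadjusted p under 0.05, 1 of 9, *Axin2*, was higher by edgeR and likewise by DESeq2. At that level 11.6% of the 16734 genes tested by edgeR were higher, and 4.96% of the 34199 genes with a p-value from DESeq2, which include low counts. The means of 8 of the 9 were above those of WT mice, beside 50.8% of all genes tested, and the median of their log2 fold changes was 0.27, beside 0.0058 for all genes. The confidence interval of 1 gene, *Axin2*, did not include 0. Counts of 2 of the 9, *Axin2* and *Sp5*, were higher in every *Fmo5*-/- mouse than in every WT mouse, beside 13.9% of all genes, and counts of 0 of the 9 were lower in every one, beside 13.5%. Because whole liver was sequenced, a change in the number of perivenous cells and a change in the RNA of each cell cannot be told apart for any of these genes.

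**Figure D1:**
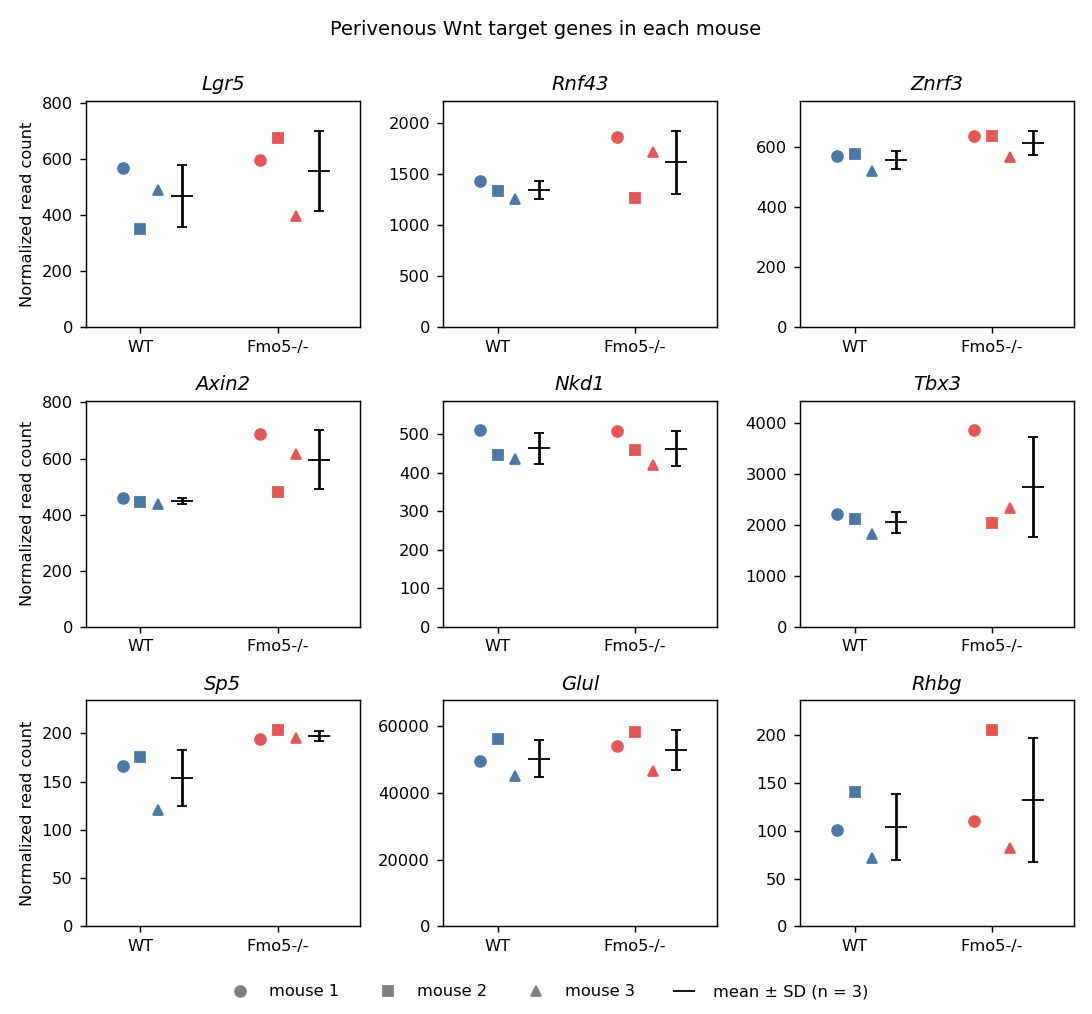
Normalized read counts of the 9 perivenous Wnt target genes, 1 panel per gene, for the 3 WT mice (blue) and 3 *Fmo5*-/- mice (red), with the mean and SD beside each group and every axis starting at 0. The groups are separate only for *Axin2* and *Sp5*, and for *Tbx3* and *Rhbg* 1 *Fmo5*-/- mouse stands above the other 5 animals.

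Of the receptor and ligase genes, the R-spondin receptor gene *Lgr5* had normalized counts of 569, 350 and 490 in WT mice and 598, 676 and 398 in *Fmo5*-/- mice. These ranges overlap, and the mouse with the second lowest count of the 6 was an *Fmo5*-/- animal. The mean was 470 ± 111 (SD, n = 3) in WT and 557 ± 144 (SD, n = 3) in *Fmo5*-/- mice, a log2 fold change of 0.25 with a 95% confidence interval from -0.29 to 0.79 and an adjusted p of 0.586 by edgeR, and the value was 0.08 without WT mouse 2 and likewise without *Fmo5*-/- mouse 2. *Rnf43*, a ligase gene that limits the amount of Frizzled on the cell surface, had 1433, 1339 and 1256 in WT mice and 1865, 1272 and 1718 in *Fmo5*-/- mice. Thus 2 *Fmo5*-/- mice were above all WT mice and the other lay between the 2 lowest WT values. The log2 fold change of *Rnf43* was 0.27, with an interval from -0.04 to 0.58 and an adjusted p of 0.291 by edgeR. It was 0.15 without *Fmo5*-/- mouse 1 and 0.42 without *Fmo5*-/- mouse 2. Counts of the related ligase gene *Znrf3* were 570, 576 and 520 in WT mice and 637, 635 and 565 in *Fmo5*-/- mice. They were the tightest of the 9 within *Fmo5*-/- mice after *Sp5*, with a coefficient of variation of 6.66%, and the genotypes overlapped only through the lowest *Fmo5*-/- mouse. The interval for *Znrf3*, -0.07 to 0.36 around a log2 fold change of 0.14, leaves room for a mean up to 1.28-fold that of WT.

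The inhibitor genes were *Axin2* and *Nkd1*. *Axin2*, which encodes a scaffold of the complex that destroys β-catenin and is widely read as a gauge of Wnt signalling, had 459, 446 and 439 normalized counts in WT mice and 688, 481 and 617 in *Fmo5*-/- mice. Every *Fmo5*-/- value was above every WT value, but the lowest of them was close to the WT range. The mean was 448 ± 10.05 (SD, n = 3) in WT and 595 ± 105 (SD, n = 3) in *Fmo5*-/- mice, which is 32.9% higher. This is a log2 fold change of 0.41 (SE 0.13) with an interval from 0.11 to 0.71, and the adjusted p was 0.126 by edgeR and 0.105 by DESeq2. The spread among WT mice, with a coefficient of variation of 2.24%, was smaller than the counting error of the shallowest library, whereas that among *Fmo5*-/- mice was 17.7%. Only when every gene with at least 1 count was tested, without the filter on low counts, did *Axin2* pass, with an adjusted p of 0.0354 by edgeR, and 5.82% of the 34200 genes then tested were called. *Nkd1*, whose product binds Dishevelled, had 509, 445 and 435 in WT mice and 509, 458 and 418 in *Fmo5*-/- mice. The 2 sets of values lie on top of each other, and the log2 fold change of -0.0042 had an interval from -0.27 to 0.26, so a mean of 0.832-fold to 1.2-fold that of WT is compatible with the counts.

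The transcription factor genes were *Tbx3* and *Sp5*. *Tbx3*, a repressor gene active in perivenous hepatocytes, had 2221, 2116 and 1822 normalized counts in WT mice and 3863, 2040 and 2331 in *Fmo5*-/- mice. Its high mean in *Fmo5*-/- mice came mostly from mouse 1, and the other 2 lay within or just above the WT range. The log2 fold change of 0.42 was the highest of the 9 but its interval ran from -0.15 to 0.99, with an adjusted p of 0.369 by edgeR, and without *Fmo5*-/- mouse 1 it was 0.09. *Sp5*, a gene switched on by β-catenin in many tissues, had 166, 175 and 121 in WT mice and 194, 204 and 195 in *Fmo5*-/- mice. Here the *Fmo5*-/- mice were all higher and close together, with a coefficient of variation of 2.72%, and the WT mice were spread over 19.0%. *Sp5* was 28.3% higher in the mean, a log2 fold change of 0.36 with an interval from -0.03 to 0.75 and an adjusted p of 0.259 by edgeR. Without WT mouse 3 this value was 0.22. *Sp5* was thinly covered, with 118 to 222 reads per library, at which counting alone gives an error of up to 9.21%.

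The metabolic targets were *Glul* and *Rhbg*. *Glul* had 49562, 56223 and 45016 normalized counts in WT mice and 53908, 58297 and 46509 in *Fmo5*-/- mice. The ranges of the genotypes overlapped over most of their length. Its mean was 50267 ± 5637 (SD, n = 3) in WT and 52905 ± 5958 (SD, n = 3) in *Fmo5*-/- mice, a log2 fold change of 0.07 (SE 0.12) with an interval from -0.20 to 0.34 and an adjusted p of 0.772 by edgeR. The log2 fold change of *Glul* was -0.0013 without *Fmo5*-/- mouse 2 and 0.16 without WT mouse 2. Depth did not limit this gene, whose 44028 to 63513 reads per library give a counting error of at most 0.477%. For *Rhbg*, the counts were 101, 141 and 71.6 in WT mice and 110, 206 and 81.5 in *Fmo5*-/- mice. A single *Fmo5*-/- animal, mouse 2, was above all WT mice, and without it the log2 fold change of 0.35 became -0.12. *Rhbg* had 70 to 224 reads per library, and its interval from -0.52 to 1.21 allows a mean from 0.7-fold to 2.32-fold that of WT.

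**Figure D2:**
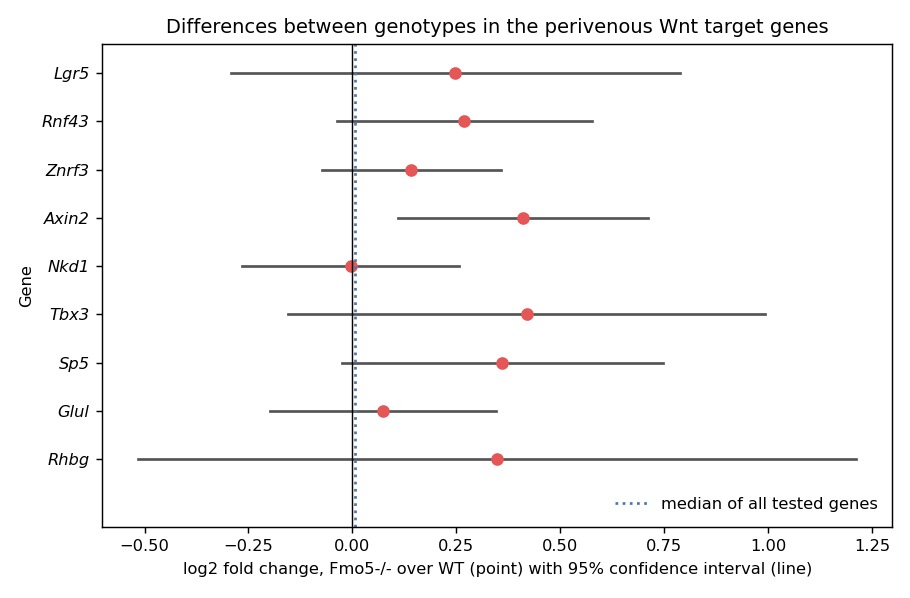
Log2 fold change, *Fmo5*-/- over WT, of each of the 9 genes (points) with its 95% confidence interval from edgeR (lines), and the median of all tested genes (dotted line). The interval of *Axin2* alone, 0.11 to 0.71, lies to the right of 0, and those of *Glul*, *Nkd1* and *Znrf3* are the narrowest.

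Mice of 1 genotype differed from each other in a way that some of the 9 genes shared. Taken as the log2 difference from the WT mean, *Fmo5*-/- mouse 1 was above the WT mean in 9 of 9 genes, with a median of 0.35, *Fmo5*-/- mouse 2 in 6 of 9, with a median of 0.20, and *Fmo5*-/- mouse 3 in 5 of 9, with a median of 0.03. Among WT mice, mouse 1 was above the mean in 8 of 9 genes, mouse 2 in 5 and mouse 3 in 1. By these counts the 9 genes ran low in WT mouse 3, with the exception of *Lgr5*, and high in *Fmo5*-/- mouse 1. The same shares were not counted over all tested genes, so whether this was particular to the 9 was not tested. Left out 1 library at a time, the median log2 fold change of the 9 stayed above 0, between 0.12 without *Fmo5*-/- mouse 2 and 0.37 without *Fmo5*-/- mouse 3.

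*Axin2*, *Rnf43* and *Tbx3* ranked the mice alike, 1, 2 and 3 from high to low in WT and 1, 3 and 2 in *Fmo5*-/- mice, an order shown by 4.6% of all tested genes. *Glul* and *Rhbg* shared another order, with mouse 2 highest and mouse 3 lowest in both genotypes, shown by 2.83% of all genes. That order was also found in 7 of 25 other perivenous genes, *Oat*, *Slc1a2*, *Cyp2e1*, *Cyp2a5*, *Gulo*, *Slc13a3* and *Lhpp*, in 0 of 25 periportal genes and in 3 of 14 endothelial markers, *Pecam1*, *Thbd* and *Vwf*. It was further found in *C1qa* among 8 Kupffer cell markers, *Ccna2* among 6 markers of proliferating cells, *Wnt9b* among 9 ligands and *Lef1* among 14 nuclear factors, so it was not particular to the perivenous zone. *Axin2*'s order was found in 0 of the 25 other perivenous genes in 2 of the 25 periportal genes, *Ass1* and *Fbp1*, and in 4 of 17 genes of the destruction complex and Dishevelled, *Apc*, *Axin1*, *Gsk3a* and *Fbxw11*, and in *Fzd1*, *Ctnnbip1* and *Kremen1* of the other pathway lists. An order of 3 mice is a coarse measure, the mouse numbers carry no pairing between genotypes, and these orders were looked at after the counts were known.

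**Figure D3:**
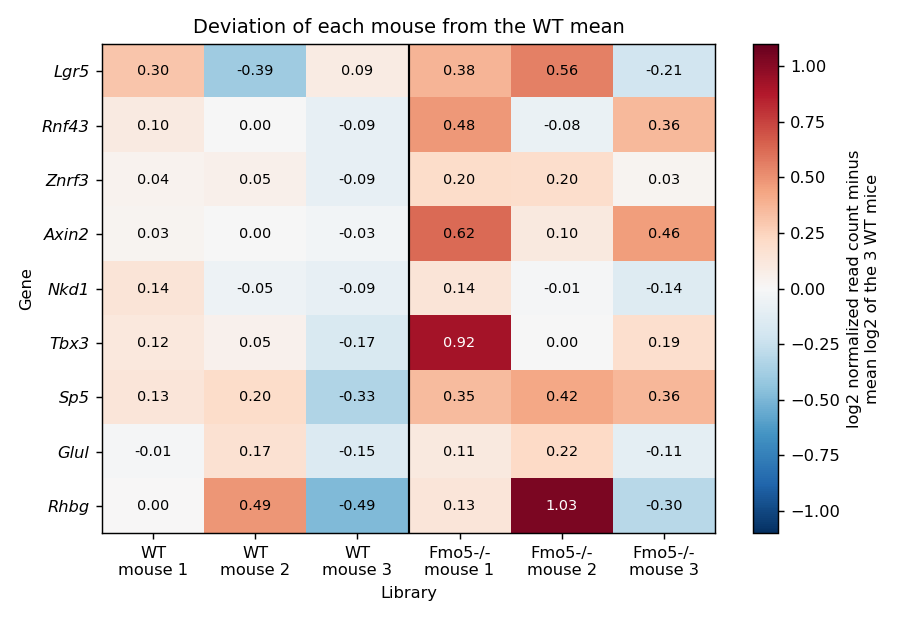
Heat map of the log2 normalized read count of each gene (rows) in each mouse (columns) minus the mean log2 of the 3 WT mice, printed in each cell. *Fmo5*-/- mouse 1 is above the WT mean throughout, with 0.92 for *Tbx3* and 0.62 for *Axin2*, and *Fmo5*-/- mouse 2 carries the highest cell, 1.03 for *Rhbg*.

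The genes also differed greatly in abundance. Levels were divided by the exonic bases that no other gene shares, a choice made after the data had been seen, because *Rhbg* keeps 747 of its 1937. As the median over 6 mice of normalized counts per kilobase of these bases, *Glul* stood first with 16614, followed by *Tbx3* with 333, *Rnf43* with 211, *Rhbg* with 141, *Nkd1* with 99.1, *Axin2* with 88.7, *Sp5* with 87.8, *Znrf3* with 72.6 and *Lgr5* with 51.6. Between neighbours in that order, the ranges over the 6 mice were separate for *Glul* and *Tbx3* and, narrowly, for *Znrf3* (65.93 to 80.7) and *Lgr5* (34.1 to 65.91), and overlapped for the rest. With all exonic bases as the divisor, *Rhbg* stood eighth with 54.3. As TPM, the share of all transcripts after correction for length, *Glul* was at 764 ± 110 (SD over 6 mice), above 99.2% of the genes tested, whereas *Lgr5* was at 2.46 ± 0.672 and above 37.5%.

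The genes whose profile over the 6 mice lay nearest to that of *Glul*, by the root mean square difference of centred log2 counts among 7818 genes with a mean of 500 or more, were *Slc23a2* (0.041), *Itpkb* (0.051), *Tpm3* (0.058), *Celf2* (0.059) and *Mrc1* (0.060). *Slc23a2*, an ascorbate transporter gene, had 1362, 1454 and 1246 normalized counts in WT mice and 1460, 1543 and 1309 in *Fmo5*-/- mice. Within each genotype, its mice stood in the same order as those of *Glul*, which a gene picked for its likeness to *Glul* would tend to show. Of the Wnt target genes with a mean of 500 or more, *Znrf3* ranked 30 by this measure (0.081), and *Rnf43* ranked 6484, *Axin2* 6747, *Lgr5* 7161 and *Tbx3* 7251. The measure rests on 6 libraries and describes likeness only. It is not scaled for spread, so a gene that varies more between mice than *Glul* can rank far from it for that alone.

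Upstream of the 9 genes, no component of the pathway passed the test by edgeR. The shares of all genes against which the lists below are read were 1.37% called by edgeR, 8.96% called by DESeq2, and 11.6% higher and 10.2% lower at an unadjusted p under 0.05 by edgeR. Of 23 genes for Wnt ligands and R-spondins, 9 were expressed enough to be tested, 6 were higher and 3 lower in the mean, with a median of 0.05 on the log2 scale. EdgeR and DESeq2 each called 0, and 1, *Wnt5b*, was lower at an unadjusted p under 0.05 by edgeR. The ligands of the central vein were *Wnt2*, *Wnt9b* and *Rspo3*. *Wnt2* had 160, 151 and 102 normalized counts in WT mice and 185, 214 and 136 in *Fmo5*-/- mice, a log2 fold change of 0.38 with an interval from -0.13 to 0.89. This value was 0.21 without WT mouse 3, 0.23 without *Fmo5*-/- mouse 2 and 0.64 with reads of 1 strand. *Wnt9b* had a log2 fold change of -0.09 with an interval from -0.77 to 0.59 and *Rspo3*, which encodes the R-spondin of the central vein, of 0.10 with an interval from -0.19 to 0.40. Both directions hung on single mice: *Wnt9b* was at 0.19 without WT mouse 2, and *Rspo3* at -0.0048 without *Fmo5*-/- mouse 2. *Wnt5b*, a ligand that mostly acts without β-catenin, had the smallest p of the list, with 301, 325 and 339 in WT mice and 224, 257 and 294 in *Fmo5*-/- mice. Its values were lower in all 3 *Fmo5*-/- mice, a log2 fold change of -0.32 with an adjusted p of 0.218 by edgeR.

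Cells that make the ligands were gauged by their markers. Of 14 endothelial markers, 10 were higher and 4 lower in the mean, with a median of 0.18 on the log2 scale and 0 called by edgeR, where 1 was higher and 1 lower at an unadjusted p under 0.05, and DESeq2 called *Fcgr2b* lower. Their summed level was 133 to 163 TPM in WT and 154 to 175 TPM in *Fmo5*-/- mice. Of 8 Kupffer cell markers, 8 were higher, by a median of 1.05 on the log2 scale, and their summed level was 236 to 294 TPM in WT and 410 to 797 TPM in *Fmo5*-/- mice, with no marker at 0 in any library. *Clec4f*, a lectin gene of Kupffer cells, was called by edgeR (log2 fold change 0.70, adjusted p 0.0275), and 7 of the 8 were called by DESeq2. *Fmo5*-/- mouse 1, the highest of the 6 for *Axin2*, *Rnf43* and *Tbx3*, had 740 TPM, mouse 2 had 797 and mouse 3 had 410. The part of these cells in the counts of the Wnt target genes was not tested.

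Among 15 tested genes for Wnt secretion and receptors, 8 were higher and 7 lower, with a median log2 change of 0.02. EdgeR and DESeq2 called 0, and by edgeR 1 was lower at an unadjusted p under 0.05. *Fzd4*, a Frizzled receptor gene, had 1951, 1545 and 1395 normalized counts in WT mice and 1370, 1225 and 1169 in *Fmo5*-/- mice. All 3 *Fmo5*-/- mice were lower, by a log2 fold change of -0.38 with an interval from -0.66 to -0.09 and an adjusted p of 0.135 by edgeR (-0.22 without WT mouse 1). The co-receptor gene *Lrp6* was at -0.20 (interval -0.44 to 0.03) and *Lgr4*, the R-spondin receptor gene expressed throughout the lobule, at -0.13 (interval -0.32 to 0.07), and without *Fmo5*-/- mouse 2 they were at -0.12 and -0.07.

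The destruction complex and Dishevelled contributed 17 genes, 8 higher and 9 lower, with a median of -0.03. Both tools called 0, and by edgeR 2 were higher and 1 lower at an unadjusted p under 0.05. *Ctnnb1*, which encodes β-catenin itself, had 8618, 9017 and 8157 normalized counts in WT mice and 8703, 7116 and 7877 in *Fmo5*-/- mice, a log2 fold change of -0.12 with an interval from -0.34 to 0.10 (-0.05 without *Fmo5*-/- mouse 2, -0.20 without *Fmo5*-/- mouse 1). The genotypes overlapped, with the highest *Fmo5*-/- mouse second of the 6. *Gsk3b*, the kinase gene whose product marks β-catenin for destruction, was at -0.22 (interval -0.42 to -0.02, adjusted p 0.198 by edgeR), and *Apc2*, a scaffold gene with only 16.9 to 43.1 normalized counts per mouse, at 0.83 (interval 0.19 to 1.46, adjusted p 0.137 by edgeR).

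Of 14 nuclear factors, 10 were higher and 4 lower, with a median of 0.06. This median ranged from 0.04 to 0.12 with 1 library left out. It was 0.13 where only genes with a mean of 500 or more entered the fit. That fit was scaled anew, with a median of 0.0018 over all its genes, and left out the thinly covered genes of the list. EdgeR called 0, with 3 higher at an unadjusted p under 0.05, and DESeq2 called 1. *Tcf7l2*, the main TCF gene of hepatocytes, was at 0.08 with an interval from -0.20 to 0.37, and at -0.08 without *Fmo5*-/- mouse 2. *Lef1* was at 1.35 (adjusted p 0.103 by edgeR) but had only 4.09 to 18.4 normalized counts per mouse. *Bcl9*, which encodes a β-catenin co-activator, had 503, 322 and 537 in WT mice and 653, 700 and 633 in *Fmo5*-/- mice. Every *Fmo5*-/- mouse was higher, with a log2 fold change of 0.54, an adjusted p of 0.123 by edgeR and of 0.0461 by DESeq2, and the value was 0.35 without WT mouse 2. *Bcl9* lies 0.331 Mb from *Fmo5* on chromosome 3, and whether that position has a part in its counts was not tested.

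Of 17 inhibitor genes listed outside the 9, 8 were tested, 6 higher and 2 lower, with a median of 0.09 (0.20 without WT mouse 3 and 0.18 without *Fmo5*-/- mouse 1). EdgeR called 0, with 1 higher and 1 lower at an unadjusted p under 0.05, and DESeq2 called 1. *Notum*, itself a Wnt target gene that encodes an enzyme stripping the lipid from Wnt proteins, had 1358, 1223 and 1364 normalized counts in WT mice and 1806, 1753 and 1460 in *Fmo5*-/- mice. All 3 *Fmo5*-/- mice were higher, a log2 fold change of 0.35 with an interval from 0.12 to 0.57 and an adjusted p of 0.095 by edgeR. *Dkk4*, which encodes a secreted antagonist of LRP6, moved the other way, from 28.6, 30.1 and 26.6 to 7.45, 0.918 and 10.8. These are low counts but separate groups, with a log2 fold change of -2.15, an adjusted p of 0.0694 by edgeR and of 0.00892 by DESeq2.

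Zonated genes outside the Wnt feedback loop were compared in the same fit. Of 25 other perivenous genes, 14 were higher and 11 lower in *Fmo5*-/- mice, their median was 0.05 on the log2 scale (-0.03 to 0.13 with 1 library left out, and below 0 without WT mouse 3 or *Fmo5*-/- mouse 2), and 2 of the 25 rose by edgeR. *Cyp1a2*, a cytochrome P450 gene (chr9:57676937-57683703), rose from 29744, 32486 and 29896 normalized counts in WT mice to 46672, 52512 and 45632, a log2 fold change of 0.65 (SE 0.10) with an adjusted p of 0.0208 by edgeR. *Gstm3*, a glutathione S-transferase gene (chr3:107963696-107969283, 10.3 Mb from *Fmo5*), rose from 2161, 1552 and 1851 to 3314, 3899 and 2804, a log2 fold change of 0.85 with an adjusted p of 0.043 by edgeR. In both, all *Fmo5*-/- mice were above all WT mice. The call on *Cyp1a2* was lost without WT mouse 1 (log2 fold change 0.64) or *Fmo5*-/- mouse 1 (0.67), and that on *Gstm3* without WT mouse 2 (0.74), WT mouse 3 (0.85), *Fmo5*-/- mouse 1 (0.85) or *Fmo5*-/- mouse 2 (0.72), or where only genes with a mean of 500 or more entered the fit (0.91). DESeq2 called both and also *Mgst1*, a microsomal glutathione transferase gene, as lower. At an unadjusted p under 0.05 by edgeR, 4 of the 25 were higher and 2 lower, beside 11.6% and 10.2% of all genes. Log2 fold changes of the list ran from -0.44 to 0.85, and *Oat*, an ornithine aminotransferase gene whose zone resembles that of *Glul*, was at 0.05 with an interval from -0.54 to 0.64.

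Of 25 periportal genes, 8 were higher and 17 lower in the mean, and their median was -0.18 on the log2 scale. This median was -0.05 without *Fmo5*-/- mouse 2, -0.08 without WT mouse 3 and -0.12 without WT mouse 1. It was also -0.08 where only genes with a mean of 500 or more entered the fit. That fit left out periportal genes of lower count, among them *Fgf21*. It was also scaled anew, with a median of 0.0018 over all its genes, so the -0.08 and the -0.18 do not share a zero point. At an unadjusted p under 0.05 by edgeR, 10 of the 25 were lower and 2 higher, beside 10.2% and 11.6% of all genes. Among all 7819 genes with a mean of 500 or more, 5001 were lower and 2818 higher in the mean, with a median of -0.06. After adjustment, *Igfbp2* rose (chr1:72824503-72852474, log2 fold change 0.72, adjusted p 0.0151 by edgeR) and *Fgf21* fell (chr7:45613886-45615490, -1.89, adjusted p 0.0494 by edgeR). *Igfbp2* encodes a binding protein for insulin-like growth factors, and *Fgf21* encodes a hormone that the liver releases in fasting. The call on *Igfbp2* was lost without WT mouse 1 (0.72), WT mouse 2 (0.68) or *Fmo5*-/- mouse 1 (0.68), and that on *Fgf21* without WT mouse 1 (-1.66), WT mouse 2 (-2.00), WT mouse 3 (-1.97) or *Fmo5*-/- mouse 1 (-2.13), or with reads of 1 strand (-1.73). DESeq2 called 8 of the 25, 2 higher and 6 lower, beside 4.21% of all genes that it called lower. The 2 zones were not compared with each other by a test.

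Genes that handle ammonia and glutamine, the substrates and product of glutamine synthetase, were 8 higher and 4 lower among 12 tested, with a median of 0.19 (0.11 without *Fmo5*-/- mouse 2). EdgeR called 0, with 3 higher and 1 lower at an unadjusted p under 0.05, and DESeq2 called 1. *Got1*, a cytosolic aspartate aminotransferase gene, had 5831, 6451 and 6671 normalized counts in WT mice and 10542, 7449 and 7627 in *Fmo5*-/- mice, a log2 fold change of 0.43 with an adjusted p of 0.12 by edgeR and of 0.0489 by DESeq2, and it was 0.25 without *Fmo5*-/- mouse 1. *Slc1a5*, a glutamine transporter gene, was at 0.62 with an adjusted p of 0.133 by edgeR, and at 0.39 without *Fmo5*-/- mouse 2. In both genes the *Fmo5*-/- mice were all above the WT mice.

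**Figure D4:**
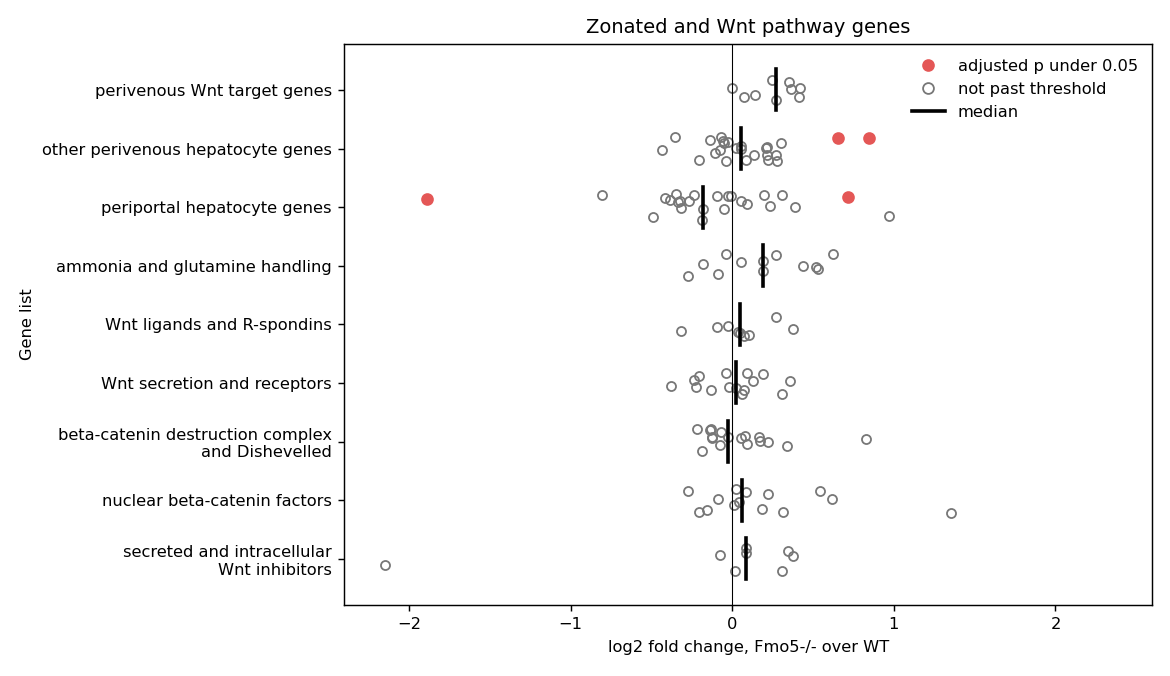
Log2 fold changes, *Fmo5*-/- over WT, of the tested genes of each pathway and zone list, without the cell type markers (points) with the list's median (bar), filled where edgeR's adjusted p was under 0.05. The 9 Wnt target genes have a median of 0.27, and the 4 filled points are *Cyp1a2* and *Gstm3* among perivenous and *Igfbp2* and *Fgf21* among periportal genes.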

How the data were processed

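Liver RNA of 3 WT and 3 *Fmo5*-/- mice was sequenced as single reads, 1 library per mouse. The authors clipped adapters, mapped reads to mm10 with STAR 2.6.0c and deposited raw counts of uniquely mapped reads per gene for both strands together and for each strand. They also deposited a table whose signal columns hold these counts divided by 1 size factor per library from DESeq2 1.22.2. Its columns of log2 fold changes, p-values and related statistics hold the authors' own comparison and were not used. The ratio of raw counts to signal was checked and was constant within each library. The annotation release is not given in the sources used here. Of 54446 identifiers, 54409 matched GENCODE vM21, 1180 of them only without the version suffix, and positions and exon lengths came from that match. The 9 genes matched with their versions. There were 0 columns of other samples.

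Of the reads listed per library, 66.2% to 69.2% were counted on genes, and only these entered library sizes. A count of 0 allows up to 0.0573 to 0.0668 CPM (3 counts), which covers counting error only. Genes kept by filterByExpr (minimum count 10) were compared with the robust quasi-likelihood test of edgeR 4.0.16 in R 4.3.3, with TMM scaling and Benjamini-Hochberg adjustment over 16734 genes, and called at an adjusted p under 0.05. Normalized counts are counts scaled by the effective library size to its mean over the 6 libraries. Standard errors are the log2 fold change over the square root of F, intervals are 95% confidence intervals, and fold changes are *Fmo5*-/- over WT. The steps were tested on simulated data.

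The 9 genes and all lists were chosen with earlier results of these data known. Named are the 9 genes, *Fmo5*, called genes of the lists or otherwise the 2 with the smallest p, *Wnt2*, *Wnt9b*, *Rspo3*, *Ctnnb1*, *Tcf7l2*, *Lgr4* and the 5 genes nearest to *Glul*. Other genes were named after their values were seen. Alternatives were RLE factors, DESeq2 1.42.0, no filter on low counts, scaling without the 20 most abundant genes, reads of 1 strand, the limit of 500 set before the fit, and leaving out each library.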

Additional observations from a re-analysis of the deposited data

How the results depend on the processing

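The count of 0 called among the 9 Wnt target genes held with RLE factors, DESeq2, scaling without the 20 most abundant genes, reads of 1 strand, the limit of 500 and without each library (0 to 0), and became 1 (*Axin2*) with no filter on low counts. Over all genes the 229 calls became 1395 with DESeq2, 1989 with no filter and 53 where the fit held only genes above the limit of 500, and 31 (without *Fmo5*-/- mouse 1) to 763 (without *Fmo5*-/- mouse 3) with 1 library left out. In the last case 79.4% of calls were higher, against 49.3% with all libraries. Without the filter, 5.82% of the 34200 genes tested were called. Calls were then 1 among receptors, 2 among nuclear factors, 2 among inhibitors, 4 among 25 perivenous, 9 among 25 periportal and 3 among ammonia and glutamine genes. DESeq2 called 1 nuclear factor, 1 inhibitor, 8 of 25 periportal genes and 1 ammonia and glutamine gene, beside 8.96% of all genes. The limit of 500 left 1 perivenous and 1 periportal call, and reads of 1 strand 1 periportal call. With 1 library left out, calls ranged from 0 to 1 for nuclear factors, 0 to 2 for inhibitors, 0 to 2 for perivenous, 0 to 3 for periportal and 0 to 1 for ammonia and glutamine genes. The direction turned for 6 log2 fold changes. Leaving out 1 library gave -0.0013 to 0.16 for *Glul*, -0.12 to 0.62 for *Rhbg*, -0.081 to 0.075 for *Nkd1*, -0.35 to 0.19 for *Wnt9b*, -0.0048 to 0.17 for *Rspo3* and -0.079 to 0.18 for *Tcf7l2*. The range was 0.08 to 0.44 for *Lgr5*, 0.15 to 0.42 for *Rnf43*, 0.22 to 0.46 for *Sp5* and 0.09 to 0.59 for *Tbx3*. For *Nkd1* the value was 0.0012 with scaling without the 20 most abundant genes and 0.12 with reads of 1 strand. List medians whose sign turned with 1 library left out were those of ligands (-0.03 to 0.12), receptors (-0.05 to 0.10), the destruction complex (-0.08 to 0.05) and other perivenous genes (-0.03 to 0.13). With only genes above the limit of 500 in the fit, the medians were -0.07 for receptors, 0.28 for inhibitors and 0.08 for ammonia and glutamine genes. These medians rest on fewer genes, for inhibitors on *Notum* and *Kremen1* alone. That fit was also scaled anew. The median of all its genes was 0.0018, beside -0.06 for genes with such a mean in the main fit. The cause of these changes was not tested. No paired analysis was possible because the labels carry no replicate numbers. Depth was lowest for *Rhbg*, with 70 to 224 reads per library, and *Sp5*, with 118 to 222, and the intervals were widest for *Rhbg* and *Tbx3*.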

Other observations

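Markers of proliferating cells were higher in *Fmo5*-/- livers in 6 of 6 genes, by a median of 1.03 on the log2 scale. EdgeR called 0 of them, beside 1.37% of all genes. By edgeR 5 were higher at an unadjusted p under 0.05, beside 11.6% of all genes. DESeq2 called 3 (*Mki67*, *Top2a* and *Ccna2*), beside 8.96% of all genes. *Mki67*, a gene of dividing cells, had 90.02, 104 and 101 normalized counts in WT mice and 264, 361 and 140 in *Fmo5*-/- mice, so that all 3 *Fmo5*-/- mice were above all WT mice. The summed level of the 6 genes was low, at 2.69 to 2.80 TPM in WT and 3.31 to 8.01 TPM in *Fmo5*-/- mice. Among Kupffer cell markers, *Marco*, a scavenger receptor gene, had 721, 468 and 790 in WT mice and 4989, 3710 and 676 in *Fmo5*-/- mice, so that the third *Fmo5*-/- mouse lay within the WT range. Of 9 stellate cell markers, 7 were higher and 2 lower, with a median of 0.17, and of 7 bile duct markers 5 were higher and 2 lower, with a median of 0.03. Of 7 hepatocyte markers matched by symbol, 2 were higher and 5 lower, with a median of -0.06. EdgeR and DESeq2 called 0 in these 3 lists. At an unadjusted p under 0.05 by edgeR, 1 stellate cell marker was higher, 1 hepatocyte marker, *Apob*, was lower and 0 bile duct markers differed. The shares of all genes at that level were 11.6% higher and 10.2% lower.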
